A study of Mus musculus with 12 samples.

Results

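Loss of PDE8A was examined in Ocy454 cells by comparing the 3 RNA sequencing libraries labelled PDE8A KO with the 3 libraries of wild-type (WT) cells given vehicle, 6 of the 12 samples of the series. Ocy454 cells are an immortalised line from mouse that resembles osteocytes, the cells buried in bone matrix. The KO libraries are labelled with the genotype PDE8A KO and the WT libraries with the genotype WT and the treatment vehicle. The headers of the values name DMSO for both groups. How the knockout was made, which part of the gene was removed, whether the KO cells are 1 clone, and how long the cells were cultured are details not stated in the labels. Every row of the comparison's table that carries a mouse gene symbol was used, which gave 11592 genes (rows), with no further filter on their values. Wild-type cells treated with PTH (3 libraries) are cited beside the KO only for the cAMP genes and for chromosome position, and that comparison uses the same 3 WT libraries.

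PDE8A is a phosphodiesterase with high affinity for cAMP. It hydrolyses the cAMP that receptors such as the parathyroid hormone (PTH) receptor make through adenylyl cyclases, and so limits signalling through protein kinase A and the transcription factor CREB. Osteocytes form when osteoblasts, which lay down collagen and mineral under the transcription factors RUNX2 and SP7, become enclosed in the matrix they made.

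Summed over listed genes, the libraries had 27722047 to 34323285 estimated counts. Levels below are the deposited normalised estimated counts ("counts"), given in the order KO 1, 2, 3 and WT 1, 2, 3. Changes are log2 fold changes of KO over WT ± SE from limma on log2 of the count plus 1, and a gene is said to have risen or fallen where the adjusted p was below 0.05 and the log2 fold change was at least 1 in size. WT 1 stood apart: across genes its log2 values had r = 0.947 and 0.945 with WT 2 and WT 3, which had r = 0.992 with each other, and the KO libraries had r between 0.984 and 0.988. Values without WT 1 are therefore given for genes whose call rests on that library, for main results and for the gene lists. Genes counted below 11 in any library are not in the table, so a gene that was silent in 1 group is missing from it. In these bulk samples, fewer cells of a type and less RNA per cell cannot be told apart. Separate cultures are not stated in the labels for the 3 libraries of a group, so a p-value reflects spread among libraries that could be purely technical.

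The label was set against osteocyte and osteoblast markers. Of 10 osteocyte markers, Dmp1, Phex, Pdpn, Gja1 and Mef2c were listed, and Sost, Mepe, Fgf23, Dkk1 and Tnfsf11 were not, which takes a count below 11 in only 1 library and so does not show their level in either group. All 9 osteoblast markers were listed, and their summed level was between 245098 and 291677 counts in the KO libraries, against 131769.8 counts in WT 1 and 472486 and 556459.7 counts in WT 2 and WT 3. The WT libraries thus lay on both sides of the KO libraries in this sum, in which the abundant genes Col1a1 and Col1a2 weigh heavily. Of the 9 osteoblast markers 4 fell and none rose, and of the 5 listed osteocyte markers 2 fell and 1 rose. Of all genes 5.13% fell and 6.32% rose.

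The Pde8a transcript itself was present in every KO library. It was at 2074, 2438 and 2037 counts in the KO libraries, against 3099.6, 2579 and 2889.6 counts in the WT libraries. The groups did not overlap, as in 49.8% of all genes, and the KO level was 76.4% of the WT level. The log2 fold change was -0.39 ± 0.14 (limma adjusted p = 0.0681), under the size counted as a change, and -0.33 without WT 1 (limma adjusted p = 0.0459). An exact two-sided permutation test over the 6 libraries gave p = 0.1, the smallest it can give with 3 against 3. The authors' deposited table gives a log2 fold change of -0.39 with an adjusted p of 0.0542. A count over the whole gene does not show whether the removed part is missing, so this level does not check the labels. Its relative Pde8b was not among the listed genes. Of the 6 listed genes nearest to Pde8a on chromosome 7, Cpeb1 fell (log2 fold change -1.04 ± 0.21, limma adjusted p = 0.0114), a call lost without KO 3 or WT 1. None of the other 5 was called, among them Gm18782 with -1.52 ± 0.59 (limma adjusted p = 0.0914), a larger drop with a larger error, Sec11a with 0.25, Zfp592 with -0.26 and Whamm with -0.03.

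In all, 1328 of 11592 genes (11.5%) changed between KO and WT cells. Of these, 733 (6.32%) rose and 595 (5.13%) fell. Without WT 1, 1405 genes changed (12.1%), 699 higher (6.03%) and 706 lower (6.09%). Of the genes called in the 2 fits, 1104 were called in both and in the same direction, 224 were called only with WT 1 and 301 only without it, and none changed direction between the fits. The groups did not overlap for 49.8% of all genes. The number called fell to 967 without KO 1, 969 without KO 2 and 1118 without KO 3. The authors' deposited table holds 1452 genes past the same thresholds, and 1301 of them, 89.6% of that list and 98% of the limma list, were called in the same direction by limma.

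Many genes of bone formation fell in KO cells. Taking the lists of bone matrix and mineralisation genes, osteoblast transcription factors and osteocyte markers together, 17 of 51 listed genes fell and 4 rose with 6 libraries, against backgrounds of 5.13% and 6.32%. Without WT 1, 24 fell and 4 rose. The number that fell was 10 without KO 1, the lowest of the 6 fits that left 1 library out. The median log2 fold change of the 51 genes was -0.44 with 6 libraries and -0.82 without WT 1, against 0.00 for all genes in both fits.

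Among the transcription factors, Sp7, which encodes osterix, the factor that commits cells to the osteoblast lineage, was at 161, 255 and 307 counts in the KO libraries, against 895, 6862 and 7969 counts in the WT libraries. WT 1 lay between the KO libraries and the other WT libraries, and the groups did not overlap, as in 49.8% of all genes. Sp7 fell by 3.97 ± 0.77 (limma adjusted p = 0.00905), a call that was lost without KO 1, and its log2 fold change was -4.98 without WT 1. Tcf7, a transcription factor that acts with beta-catenin, also fell (log2 fold change -2.18 ± 0.34, limma adjusted p = 0.00419), at 1058, 1362 and 1175 counts in KO and 2938, 7176 and 7421 counts in WT libraries. Dlx3, a homeobox factor of bone and tooth, fell by 3.24 ± 0.87, but was called only with all 6 libraries or without WT 1.

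Runx2, the master factor of the osteoblast lineage, was at 1356, 1741 and 2127 counts in the KO libraries, against 1765, 4325 and 5317 counts in the WT libraries. WT 1 lay within the KO range. Its log2 fold change was -1.0 ± 0.39 with 6 libraries (limma adjusted p = 0.0917), which is no call, and -1.49 without WT 1 (limma adjusted p = 2.56e-04), which is one. Mef2c, a factor that drives Sost in osteocytes, showed the same layout, with a log2 fold change of -1.34 ± 0.53 with 6 libraries (limma adjusted p = 0.0957) and -2.01 without WT 1 (limma adjusted p = 2.21e-04). Twist2, which restrains osteoblast differentiation, rose to 608, 467 and 597 counts in the KO libraries, against 57.8, 184 and 187 counts in the WT libraries (log2 fold change 2.13 ± 0.44, limma adjusted p = 0.0121), a call lost without KO 1 or KO 3. Of the 18 listed factors 4 fell (22.2%, background 5.13%) and 1 rose (5.56%, near the background of 6.32%). Without WT 1 the count was 8 and 1. Without KO 1, 2 fell and none rose, and without KO 3 none rose.

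Matrix and mineralisation genes held the largest falls among genes called with and without WT 1 that had a mean of at least 100 counts. Genes with Gm, Rik, pseudogene or similar provisional symbols were left out of that ranking. Panx3, which encodes a channel protein of osteoblasts and chondrocytes, was at 11.7, 41.7 and 28.2 counts in the KO libraries, against 665, 7825 and 9451 counts in the WT libraries. Smpd3, which encodes a neutral sphingomyelinase needed for mineralisation of the mouse skeleton, was at 24.4, 65.3 and 35.5 counts in KO and 914, 7437 and 9016 counts in WT libraries. Ibsp, which encodes bone sialoprotein, was at 184, 308 and 158 counts in KO and 6353, 28596 and 31584 counts in WT libraries. In all of these genes every KO library was below every WT library, and WT 1 was the lowest WT library. Over all genes the groups did not overlap for 49.8%. The log2 fold changes were -7.19 ± 0.98 for Panx3, -6.64 ± 0.83 for Smpd3 and -6.42 ± 0.59 for Ibsp (limma adjusted p = 0.00228, 0.0016 and 5.13e-04 in that order), and -8.42, -7.70 and -7.17 without WT 1.

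Alpl, which encodes the alkaline phosphatase that frees phosphate for mineral, was at 1412, 2001 and 1347 counts in the KO libraries, against 4670.2, 17709.8 and 21088 counts in the WT libraries (log2 fold change -2.95 ± 0.52, limma adjusted p = 0.00652, and -3.63 without WT 1). Bglap, which encodes osteocalcin, fell by 1.71 ± 0.35 (limma adjusted p = 0.0116), a call lost without KO 1. Reads from Bglap can be shared with its near-identical copy Bglap2, which fell by 1.58, so the 2 are not separate results. Bmp1, the protease that trims procollagen, fell by 1.02 ± 0.18, and its call needed each of KO 1, KO 2, WT 2 and WT 3. The direction was opposite for Enpp1, which encodes the enzyme that makes pyrophosphate, an inhibitor of mineral. Enpp1 rose to 429, 593 and 416 counts in the KO libraries, against 189, 183 and 157 counts in the WT libraries (log2 fold change 1.42 ± 0.22, limma adjusted p = 0.00354). Mgp, which encodes matrix Gla protein, another inhibitor of mineral, was at 6339, 5076 and 4405 counts in KO and 180.1, 1680 and 1952 counts in WT libraries, with WT 1 far below the rest. It rose by 2.63 ± 0.81 (limma adjusted p = 0.0464) and by 1.52 without WT 1, and was not called without any 1 of the KO libraries.

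Col1a1, the gene of the main collagen of bone, was not called. It was at 70469, 89594 and 86556 counts in the KO libraries, against 36556, 128146 and 153457 counts in the WT libraries, so that WT 1 lay below and WT 2 and WT 3 above every KO library. Its log2 fold change was -0.13 ± 0.49 with 6 libraries (limma adjusted p = 0.859) and -0.78 without WT 1 (limma adjusted p = 0.00252). Col1a2 had the same layout, with -0.48 ± 0.52 (limma adjusted p = 0.515) and, without WT 1, a fall of 1.18 (limma adjusted p = 3.21e-04). Among 23 listed bone matrix genes 9 fell (39.1%, background 5.13%) and 2 rose (8.7%, near the background of 6.32%). Without WT 1 it was 11 and 2, and without any 1 of the KO libraries 1 rose.

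**Figure D1:**
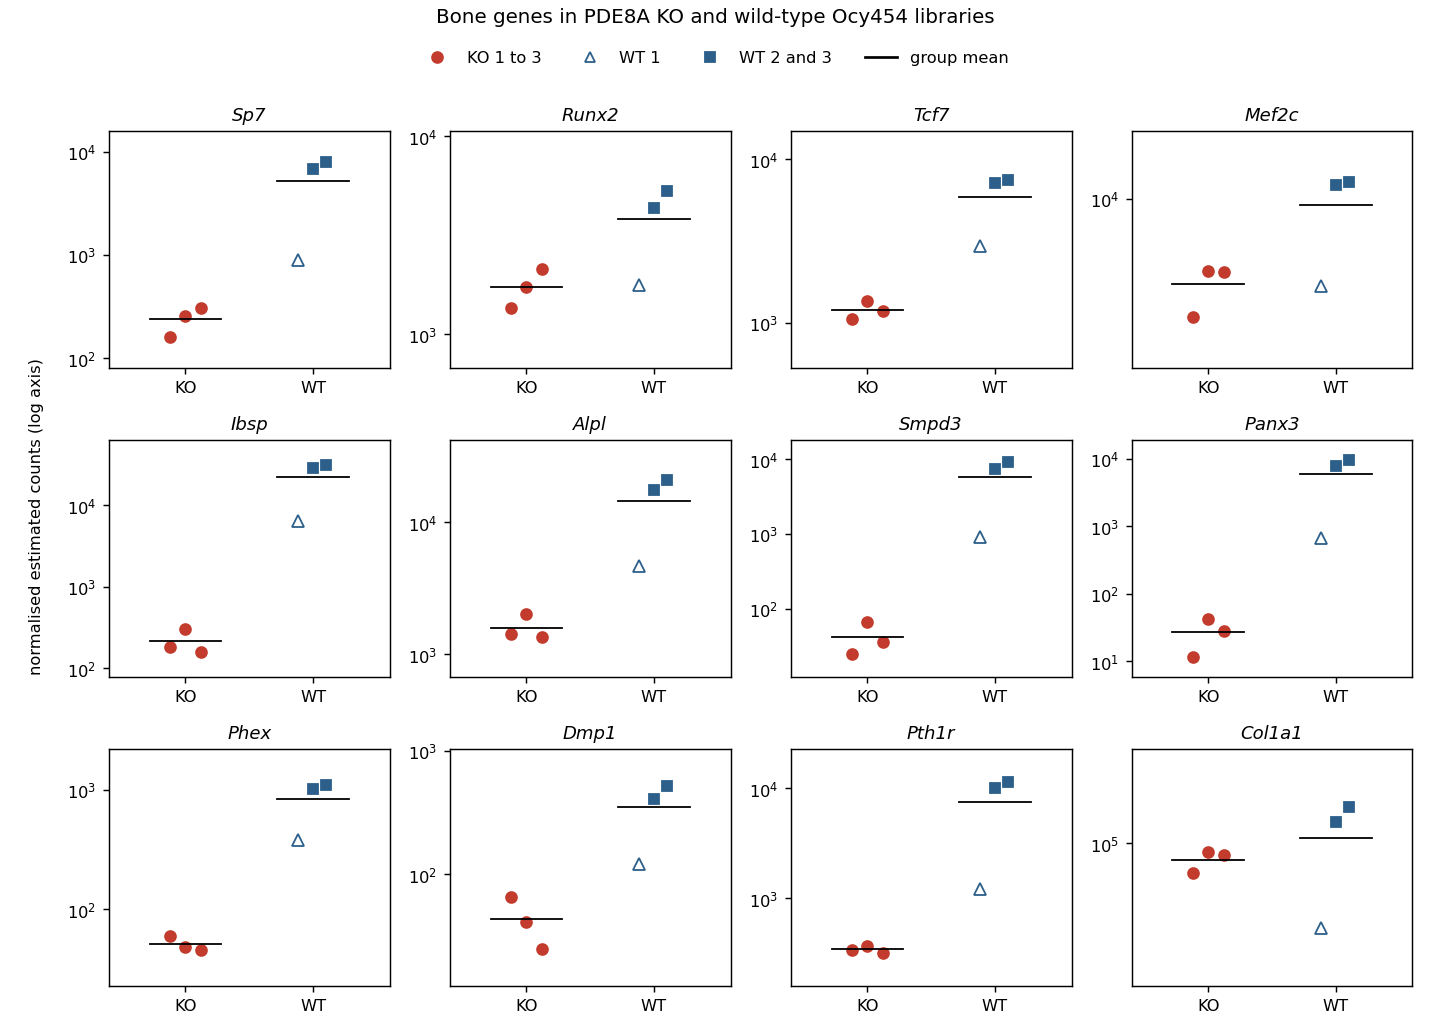
Normalised estimated counts (log axis) of 12 bone genes, 1 panel per gene, with KO 1 to 3 as circles, WT 1 as an open triangle, WT 2 and WT 3 as squares and the group means as lines. In Ibsp, Smpd3, Panx3, Phex and Pth1r every KO library lies below every WT library with WT 1 between. In Runx2, Mef2c and Col1a1 WT 1 lies within or below the KO libraries. Over all genes the groups did not overlap for 49.8%.

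Of the osteocyte genes, Phex, which encodes an endopeptidase that keeps phosphate handling normal, was at 59.6, 48.1 and 45.5 counts in the KO libraries, against 378, 1012 and 1096 counts in the WT libraries (log2 fold change -3.86 ± 0.41, limma adjusted p = 8.69e-04). Dmp1, which encodes a matrix protein of osteocytes, was at 64.5, 40.8 and 24.6 counts in KO and 120.1, 409 and 518 counts in WT libraries (log2 fold change -2.84 ± 0.59, limma adjusted p = 0.0118, and -3.48 without WT 1), a call lost without KO 2 or KO 3. Pdpn, which encodes podoplanin, a membrane protein of early osteocytes and of fibroblasts, moved the other way. It was at 1073, 973 and 732 counts in KO and 84, 238 and 231 counts in WT libraries (log2 fold change 2.45 ± 0.40, limma adjusted p = 0.00498). Irx5, a homeobox gene, and Tnfrsf11b, which encodes the decoy receptor osteoprotegerin, fell by 1.93 and 2.16 with 6 libraries, and each call was lost in 4 or more of the 6 fits that left 1 library out. Of 11 listed osteocyte genes 4 fell (36.4%, background 5.13%) and 1 rose (9.09%, background 6.32%), 6 and 1 without WT 1. The 4 were 2 without KO 1, 1 without KO 2, 1 without KO 3 and 2 without WT 2.

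Pth1r, which encodes the receptor through which PTH raises cAMP, fell to 344, 370.1 and 322 counts in the KO libraries, against 1204, 10083 and 11261 counts in the WT libraries. The KO libraries were close to each other, and WT 1 lay nearer to them than WT 2 and WT 3 did. The log2 fold change was -3.90 ± 0.76 (limma adjusted p = 0.0096) and -4.95 without WT 1, and the call was kept with any 1 library left out.

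Among the 508 genes that fell with and without WT 1, WT 1 lay between the KO mean and the mean of WT 2 and WT 3 in 61.2%, and among the 596 that rose in both fits in 39.9%. Over all 11592 genes WT 1 lay there in 25%. Genes called for a gap between the groups leave room for WT 1 in that gap, so these shares are a description. The next 4 genes are among those called only without WT 1 that were picked because their log2 fold change moved most when it was left out. Slc16a3, which encodes a lactate exporter, was at 113, 10.9 and 14.6 counts in KO libraries, against 45.8, 730 and 707 counts in WT libraries, so that WT 1 lay within the KO range. Its log2 fold change was -4.70 without WT 1 (limma adjusted p = 0.00165) and -3.39 ± 1.22 with it (limma adjusted p = 0.0741). Aldoc, a glycolytic aldolase, and Tmem119, a membrane protein of osteoblasts, also called only without WT 1, had log2 fold changes of -3.98 and -2.46 without it and of -2.79 and -0.96 with it. Ankrd37, a hypoxia-responsive gene, had a log2 fold change of -1.55 without WT 1 (limma adjusted p = 0.00161) and of 0.18 with it, where it was not called. Whether WT 1 differed in culture, RNA or handling was not tested.

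The largest increases, ranked under the same limits on call, level and symbol, were in genes of several kinds. Ccn3, which encodes a matricellular protein, was at 5388, 8323 and 6406 counts in the KO libraries, against 99.3, 105 and 151 counts in the WT libraries. Dcn, which encodes decorin, a small proteoglycan that binds collagen fibrils, was at 3341, 4011 and 1876 counts in KO and 61.1, 52 and 52.4 counts in WT libraries. Edil3, which encodes an integrin-binding matrix protein, was at 4480.1, 7129.8 and 5024 counts in KO and 100.4, 135 and 131 counts in WT libraries. No KO library came near a WT library in these genes. Their log2 fold changes were 5.81 ± 0.23, 5.71 ± 0.29 and 5.48 ± 0.22 (limma adjusted p = 3.73e-05, 7.49e-05 and 3.73e-05 in that order).

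The rest of the 15 largest increases included Vcam1, an adhesion receptor for leukocytes, at 2721, 2608 and 2467 counts in KO and 158, 97 and 113 counts in WT libraries (log2 fold change 4.42 ± 0.21, limma adjusted p = 5.09e-05). Tspan7, a tetraspanin, rose by 5.25 ± 0.33, and Cxadr, which encodes the coxsackie and adenovirus receptor of cell junctions, by 4.37 ± 0.29. Il1rl1, the receptor for interleukin 33, rose by 4.37 ± 0.30, Pla2r1, a receptor for secreted phospholipases, by 4.29 ± 0.26, and Galnt13, which starts O-linked glycans, by 4.29 ± 0.23. Hmcn1, which encodes the matrix protein hemicentin, rose by 4.37 ± 0.81, at 1562, 1108 and 1639 counts in KO and 54.6, 20 and 276 counts in WT libraries. Medag, a gene induced in adipogenesis, and Thsd7a, a membrane protein with thrombospondin repeats, rose by 4.69 and 4.11. All of the 15 largest increases and the 15 largest decreases were called whichever library was left out. A call without WT 1 was a condition for picking them. They were also picked for size in the same data, so this describes them and is no test.

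The largest decreases outside bone matrix, ranked under the same limits, were of several kinds. Tgfa, which encodes a ligand of the EGF receptor, was at 25.4, 21.8 and 29.1 counts in the KO libraries, against 1009.6, 2643 and 3062 counts in the WT libraries (log2 fold change -6.26 ± 0.41, limma adjusted p = 1.58e-04). Spns2, which exports sphingosine 1-phosphate, fell by 5.75 ± 0.57, and the log2 fold changes of Sorcs2, a sorting receptor, and Cobl, an actin nucleator, were -5.64 ± 0.38 and -5.31 ± 0.31. Pcsk6, a proprotein convertase that activates TGF-beta family ligands, fell by 5.11 ± 0.47, and the log2 fold changes of Isyna1, which makes inositol phosphate, and Slc36a2, an amino acid transporter, were -4.72 ± 0.33 and -4.72 ± 0.40. Scube3, a secreted protein that modulates growth factor signals, fell by 4.70 ± 0.31. Acta1, the actin of skeletal muscle, fell by 5.85 ± 0.62, at 14.7, 34.5 and 14.6 counts in the KO libraries, against 3184, 715 and 727 counts in the WT libraries, and here WT 1 was the highest library.

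Among collagens, 7 of 16 listed genes rose (43.8%) and 2 fell (12.5%), against backgrounds of 6.32% and 5.13%, and without WT 1 the count was 6 and 3. Col3a1, which encodes the collagen of loose connective tissue, was at 34565, 48333 and 32982 counts in the KO libraries, against 2353, 5858 and 5770.2 counts in the WT libraries (log2 fold change 3.15 ± 0.35, limma adjusted p = 0.00105). Col5a3 rose by 2.67 ± 0.26, Col16a1 by 1.96 ± 0.22, Col18a1, a basement membrane collagen, by 1.94 ± 0.15 and Col8a1 by 1.78 ± 0.27. The 2 that fell were the fibril collagens of cartilage type, Col11a2, at 84, 142 and 125 counts in KO and 2705, 5709.9 and 6938 counts in WT libraries (log2 fold change -5.37 ± 0.36, limma adjusted p = 1.69e-04), and Col11a1, by 1.45 ± 0.31, whose call was lost without KO 1 or KO 3.

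Of 23 listed genes of small proteoglycans and elastic matrix 10 rose (43.5%, background 6.32%) and 4 fell (17.4%, background 5.13%), 8 and 4 without WT 1. Thbs2, which encodes thrombospondin 2, was at 9857, 13147 and 11248 counts in the KO libraries, against 1883, 2248 and 2418 counts in the WT libraries (log2 fold change 2.38 ± 0.16, limma adjusted p = 1.57e-04). Fbn1, which encodes fibrillin 1, the scaffold of microfibrils, rose by 2.43 ± 0.24, Loxl1, which crosslinks elastin, by 1.59 ± 0.14 and Ltbp3, which binds latent TGF-beta, by 1.42 ± 0.15. In the other direction, Tnc, which encodes tenascin C, was at 2343, 2858 and 3088 counts in KO and 11276, 20245 and 22525 counts in WT libraries (log2 fold change -2.65 ± 0.26, limma adjusted p = 6.50e-04), and Loxl4, another lysyl oxidase, fell by 1.79 ± 0.30. Ltbp4 and Thbs1 fell by 1.04 and 1.39 with 6 libraries, and without any 1 library other than WT 1 neither was called. The 10 that rose were 6 without KO 2, and the 4 that fell were 2 without each library other than WT 1.

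Basement membrane genes rose in 3 of 11 cases (27.3%, background 6.32%) and fell in 1 (9.09%, background 5.13%). Lama2 and Lamb1 encode chains of laminins, and Nid2 a nidogen that links laminin to collagen IV. Lama2 was at 1221, 1061 and 942 counts in the KO libraries, against 55.7, 48 and 14.5 counts in the WT libraries (log2 fold change 4.93 ± 0.47, limma adjusted p = 6.07e-04). Lamb1 was at 3783, 3248 and 4501 counts in KO and 362, 470 and 496 counts in WT libraries (log2 fold change 3.11 ± 0.18, limma adjusted p = 1.04e-04), and Nid2 rose by 1.80 ± 0.20. Lama5, the chain of another laminin, fell to 21.5, 66.2 and 40.9 counts in KO libraries, against 642, 1007 and 732 counts in WT libraries (log2 fold change -4.29 ± 0.41, limma adjusted p = 5.93e-04). Without WT 1, 2 basement membrane genes fell. Of 14 listed integrin genes 5 rose (35.7%, background 6.32%) and 1 fell (7.14%, background 5.13%). Itga6, the alpha chain of laminin receptors, was at 752, 1001 and 853 counts in KO and 56.8, 75 and 45.7 counts in WT libraries (log2 fold change 3.87 ± 0.25, limma adjusted p = 1.50e-04), and Itga7, another laminin receptor chain, rose by 2.36 ± 0.21. Itga1, a collagen receptor chain, rose by 1.88 ± 0.33. Itga10, the chain of a collagen receptor of cartilage, fell by 2.82 ± 0.24. Itgb7 and Itgb4 rose by 2.04 and 1.73, and both calls were lost without KO 1 or KO 2, which left 3 integrins higher in either fit. Itgb4 was also not called without WT 2 or WT 3.

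**Figure D2:**
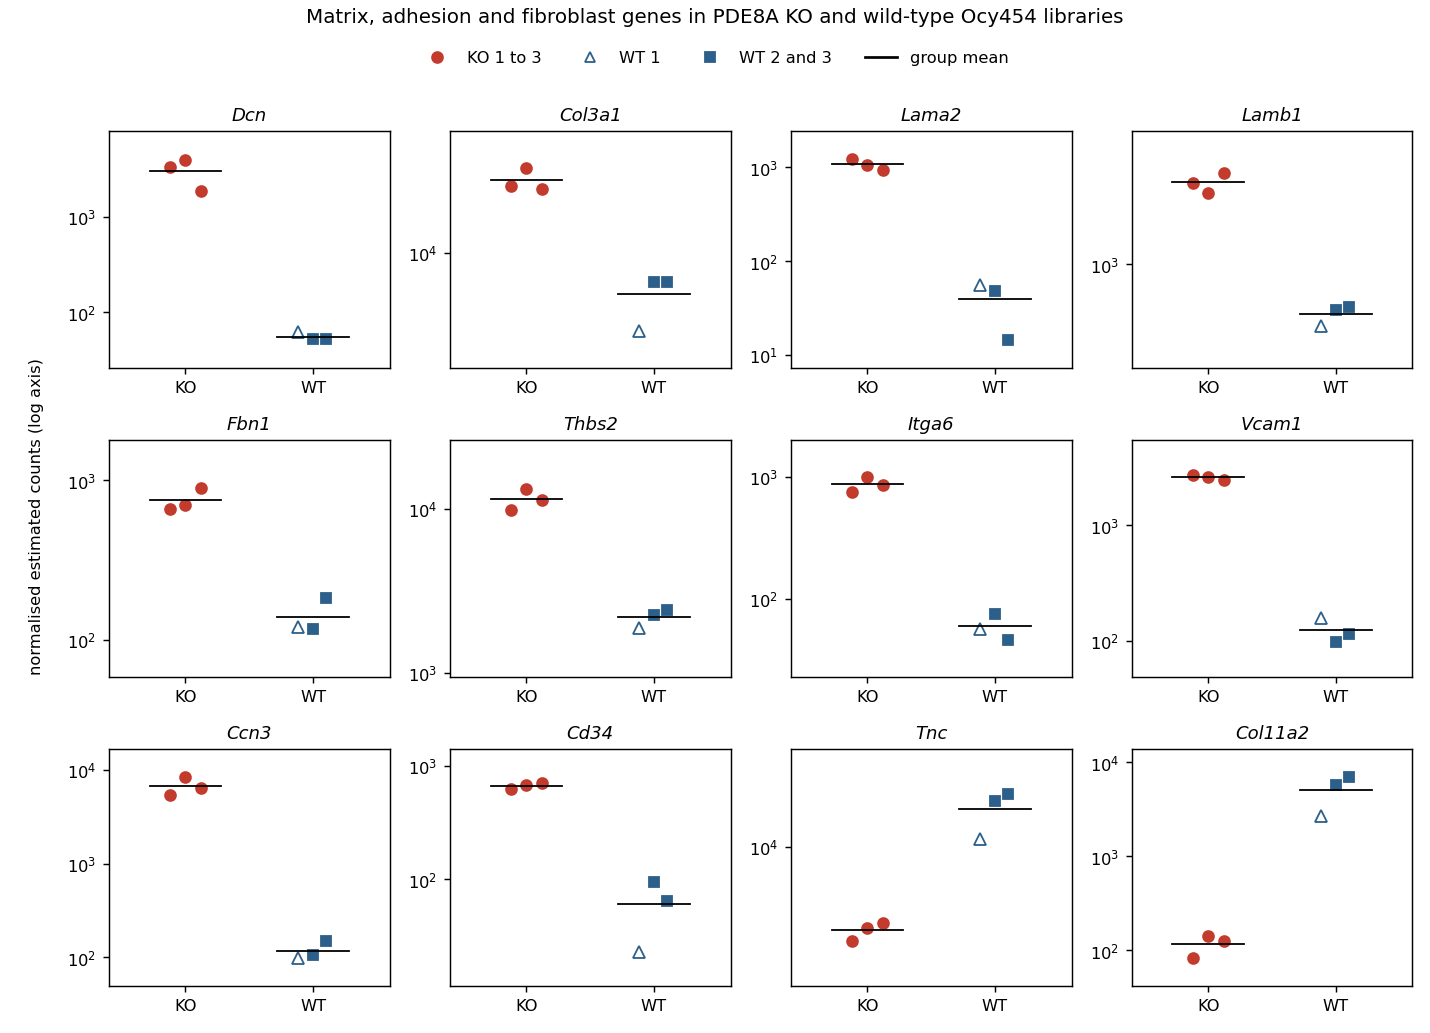
Normalised estimated counts (log axis) of 12 matrix, adhesion and surface genes, 1 panel per gene, with KO 1 to 3 as circles, WT 1 as an open triangle, WT 2 and WT 3 as squares and the group means as lines. Dcn, Col3a1, Lama2, Lamb1, Fbn1, Thbs2, Itga6, Vcam1, Ccn3 and Cd34 lie higher in every KO library than in any WT library. Tnc and Col11a2 lie lower. Over all genes the groups did not overlap for 49.8%.

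Matrix proteases and their inhibitors rose in 8 of 23 listed cases (34.8%, background 6.32%) and fell in 2 (8.7%, background 5.13%), 7 and 4 without WT 1. Mmp2, a gelatinase, was at 18772, 18166 and 13898 counts in the KO libraries, against 3672, 4908 and 5159.9 counts in the WT libraries (log2 fold change 1.89 ± 0.18, limma adjusted p = 6.07e-04). Its inhibitor gene Timp2 rose by 1.32 ± 0.17. The metalloproteinase genes Mmp19 and Mmp23 rose by 1.79 ± 0.16 and 2.86 ± 0.36, and Ctsk, which encodes cathepsin K, by 1.52 ± 0.26. The 2 that fell were Adam12 (by 2.48) and Adamts9 (by 1.48), and without KO 1 neither was called. Adam12 was also not called without KO 2. The 8 that rose were 5 without KO 2. Of 23 listed focal adhesion genes 2 rose (8.7%, near the background of 6.32%) and none fell, and 1 fell without KO 2, KO 3, WT 2 or WT 3. The 2 that rose were Tns2, which encodes tensin 2 (log2 fold change 1.56 ± 0.18, limma adjusted p = 0.00111), and Bcar1, which encodes the scaffold p130Cas (log2 fold change 1.04 ± 0.11, limma adjusted p = 8.79e-04). The kinase gene Ptk2, which encodes FAK, was at 3957, 3852 and 3837 counts in KO and 3262, 3086 and 3201 counts in WT libraries, with a log2 fold change of 0.29 ± 0.11 (limma adjusted p = 0.0852).

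Signalling genes changed in mixed directions. In the Wnt list 6 of 35 genes rose (17.1%, background 6.32%) and 7 fell (20%, background 5.13%), 6 and 11 without WT 1. Rspo3 and Rspo2, which encode secreted R-spondins that raise Wnt receptor levels, rose. Rspo3 was at 2823, 3089.6 and 2618 counts in the KO libraries, against 138, 428 and 525 counts in the WT libraries (log2 fold change 3.17 ± 0.45, limma adjusted p = 0.00279), and Rspo2 rose by 2.60 ± 0.42. Sfrp2, which encodes a secreted Wnt binder, rose by 2.29 ± 0.43. Lgr6, which encodes a receptor for R-spondins, fell to 61.5, 103 and 83.7 counts in KO libraries, against 847, 1683 and 2035 counts in WT libraries (log2 fold change -4.12 ± 0.35, limma adjusted p = 4.24e-04). The frizzled receptor genes went both ways, with Fzd2 higher by 1.33 ± 0.18 and Fzd5 and Fzd8 lower by 2.67 ± 0.16 and 1.42 ± 0.22.

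Notch and Hedgehog genes showed 4 of 17 lower (23.5%, background 5.13%) and none higher, 6 and none without WT 1. Jag2, a Notch ligand, was at 36.1, 49.9 and 146 counts in the KO libraries, against 509.7, 890 and 1214 counts in the WT libraries (log2 fold change -3.65 ± 0.54, limma adjusted p = 0.00315). Notch2, its receptor, fell by 1.26 ± 0.22. Gli1 and Gli2, the transcription factors of the Hedgehog pathway, fell by 3.12 ± 0.46 and 1.87 ± 0.30. Without WT 3, 1 gene of the list was called higher. Growth factor genes of the FGF, IGF and PDGF list rose in 10 of 28 cases (35.7%, background 6.32%) and fell in 2 (7.14%, background 5.13%). Fgf2 was at 277, 527 and 366 counts in KO and 75.3, 117 and 114 counts in WT libraries (log2 fold change 1.90 ± 0.31, limma adjusted p = 0.00473). Vegfd rose by 2.68 ± 0.29, Ptn, which encodes the heparin-binding growth factor pleiotrophin, by 2.09 ± 0.35 and Igf2r, which clears IGF2, by 1.20 ± 0.15. Pdgfc fell by 1.18 ± 0.18 and Fgfr3 by 1.06 ± 0.18, a call lost without KO 1 or WT 3. Without WT 1, 6 genes of that list fell.

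In the BMP and TGF-beta list 3 of 29 genes rose (10.3%, background 6.32%) and 5 fell (17.2%, background 5.13%). Chrd, which encodes the BMP antagonist chordin, was at 237, 222 and 297 counts in the KO libraries, against 45.8, 40 and 35.7 counts in the WT libraries (log2 fold change 2.61 ± 0.26, limma adjusted p = 6.47e-04). Skil, a repressor of SMAD signalling, fell by 1.39 ± 0.21, and Smad9, a mediator of BMP signals, by 1.81 ± 0.34. The counts of this list moved with single libraries, to 2 lower without KO 1, KO 2 or WT 2 and 3 without KO 3 or WT 3, and to 1 higher without KO 3 and 5 without WT 3. Without WT 1, 2 rose and 7 fell, and after centring on stretches of chromosome (described with chromosome position) 5 rose and 2 fell, which turns the balance round. Guidance genes rose in 9 of 41 cases (22%, background 6.32%) and fell in 6 (14.6%, background 5.13%), 8 and 8 without WT 1. Sema3c, which encodes a secreted semaphorin, was at 1721, 2299 and 2165 counts in KO and 109, 110 and 84.8 counts in WT libraries (log2 fold change 4.33 ± 0.19, limma adjusted p = 5.09e-05), and Sema3a, another one, rose by 2.09 ± 0.17. Slit2 rose by 1.49 ± 0.17 while Slit3, its close relative, fell to 29.3, 23.6 and 32.7 counts in KO libraries, against 939, 1412 and 1302 counts in WT libraries (log2 fold change -5.36 ± 0.25, limma adjusted p = 5.09e-05). Sema4d, a semaphorin known for restraining osteoblasts when made by osteoclasts, fell by 4.39 ± 0.33, and its receptor gene Plxnb1 by 2.10 ± 0.21.

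The cAMP pathway was read from the receptor to the target genes. Beside the fall of Pth1r, 3 of the 35 listed genes of the chain to protein kinase A rose (8.57%, against a background of 6.32%). Adcy7, which encodes an adenylyl cyclase, the enzyme that makes cAMP, was at 2456, 2817 and 2964 counts in the KO libraries, against 471, 555 and 521 counts in the WT libraries (log2 fold change 2.41 ± 0.14, limma adjusted p = 1.04e-04). Prkar2b, a regulatory subunit of protein kinase A, was at 1815, 2113 and 2062 counts in KO and 607, 906 and 850.1 counts in WT libraries (log2 fold change 1.36 ± 0.18, limma adjusted p = 0.00211). Akap12, which anchors the kinase, rose by 1.35 ± 0.22. Pth1r was the 1 gene of the list that fell (2.86%, background 5.13%), and without KO 2 or without WT 1 the count was 2.

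Of 9 listed phosphodiesterase genes, 2 rose (22.2%, background 6.32%) and none fell (background 5.13%). The counts were the same with any 1 library left out. Pde5a, which degrades cGMP, was at 1519, 1582 and 1561 counts in the KO libraries, against 544, 544 and 616 counts in the WT libraries (log2 fold change 1.45 ± 0.13, limma adjusted p = 4.84e-04). Pde3b, which degrades cAMP and is inhibited by cGMP, was at 1327, 1469 and 1419.8 counts in KO and 781, 621 and 598 counts in WT libraries (log2 fold change 1.08 ± 0.15, limma adjusted p = 0.00262). Pde4b and Pde4d, which PTH raised in WT cells, had log2 fold changes in the KO of 0.08 ± 0.16 (limma adjusted p = 0.752) and 0.34 ± 0.29 (limma adjusted p = 0.407).

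Known target genes of cAMP and CREB were set beside the share of all genes called. Of 19 listed, 2 rose in the KO (10.5%, background 6.32%), Pde3b and Gem, and none fell (background 5.13%). Gem, which encodes a small GTPase, was at 442, 437 and 371 counts in the KO libraries, against 152, 96 and 91.5 counts in the WT libraries (log2 fold change 1.91 ± 0.26, limma adjusted p = 0.00217). Under PTH, 14 of the 19 rose against the same WT libraries, where 2.86% of 11775 genes did. Nr4a2, an orphan nuclear receptor that cAMP induces in many cells, had a log2 fold change of 0.45 ± 0.30 in the KO (limma adjusted p = 0.294) and of 4.99 ± 0.30 under PTH. Nr4a1 had 0.17 ± 0.24 in the KO and 2.66 ± 0.19 under PTH, and Crem, which encodes a CREB relative, -0.12 ± 0.25 and 1.47 ± 0.31. Rgs2, a regulator of G-protein signalling, had -0.95 ± 0.45 in the KO and 5.97 ± 0.39 under PTH, and without WT 1 it was called lower in the KO (-1.42, limma adjusted p = 0.00696). Vdr, the vitamin D receptor gene, had 0.01 ± 0.30 in the KO and 4.14 ± 0.25 under PTH. The comparisons share their WT libraries and were scaled separately, so the values stand side by side and were not tested against each other. Pde8a itself rose under PTH by 1.26 ± 0.11 (limma adjusted p = 0.00101). The letters TGACGTCA, the full cAMP response element, were searched on either strand in the 250 bases before the start. They were found in 12 of 540 genes that rose (2.22%) and 15 of 418 that fell (3.59%). Over all 8934 genes with a RefSeq promoter 280 held them (3.13%). Of the 14 listed cAMP and CREB targets with a promoter, 1 held them (7.14%), Dusp1. Most listed targets thus had no match, so these shares do not show whether such targets changed.

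**Figure D3:**
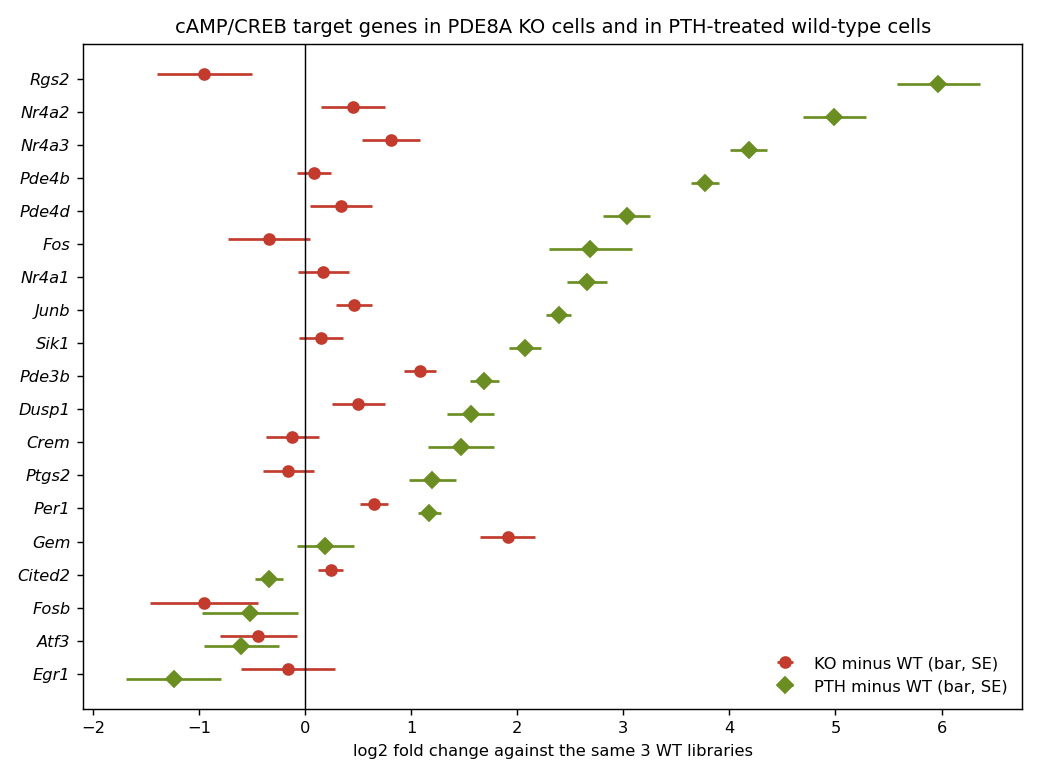
Log2 fold changes (x axis, bars are SE) of the 19 listed cAMP/CREB target genes in KO cells (circles) and in PTH-treated WT cells (diamonds), each against the same 3 WT libraries. Most diamonds lie far to the right of 0 while most circles lie between -1 and 1, with Gem and Pde3b as the circles called higher.

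In the ERK pathway list 6 of 29 genes rose (20.7%, background 6.32%) and 2 fell (6.9%, near the background of 5.13%). Braf, a kinase on the path to ERK, fell by 1.23 ± 0.27, a call lost without KO 1, KO 2 or WT 1. Fosl1, which encodes the AP-1 subunit FRA1 and is induced by ERK, was at 1823, 1218 and 1121 counts in KO and 355, 200 and 175 counts in WT libraries (log2 fold change 2.54 ± 0.31, limma adjusted p = 0.00137). The ERK phosphatase genes Dusp5 and Dusp4 rose by 1.41 ± 0.17 and 1.35 ± 0.25, and Egr3, an immediate early factor, by 1.45 ± 0.26. Etv4, an ETS factor that ERK induces, rose by 1.18 ± 0.22, a call lost without KO 1. Without WT 1 the list held 8 higher and 1 lower. The median log2 fold change of the list was 0.36 with 6 libraries and 0.39 without WT 1.

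Interferon-stimulated genes rose in 16 of 33 cases. They are switched on when type I interferon or viral RNA activates a transcription factor complex that holds STAT2 and IRF9 and binds the interferon-stimulated response element in their promoters. That is 48.5% of the list, against a background of 6.32%. None fell, and 31 had a log2 fold change above 0, with a median of 0.79. Without WT 1, 18 rose and none fell, with a median of 1.12. The number that rose was 10 without KO 3.

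Isg15, which encodes a ubiquitin-like modifier, was at 3352, 2539.9 and 3391 counts in the KO libraries, against 642, 859 and 884 counts in the WT libraries (log2 fold change 1.96 ± 0.18, limma adjusted p = 5.69e-04). Ifit1 and Ifit3, which bind viral RNA, were at 989, 908 and 1329.8 counts and 423, 403 and 518 counts in KO libraries, against 392, 322 and 328 counts and 120.1, 75 and 87 counts in WT libraries. They rose by 1.61 ± 0.19 and 2.26 ± 0.25. Irf7, the factor that amplifies the interferon response, was at 1394, 1190.1 and 1848 counts in KO and 530.4, 376 and 353 counts in WT libraries (log2 fold change 1.81 ± 0.23, limma adjusted p = 0.00163), and Zbp1, a sensor of nucleic acid, rose by 2.43 ± 0.30. In all of these genes every KO library was above every WT library, while over all genes the groups did not overlap for 49.8%. Stat2 and Irf9, which encode parts of the activating complex, were not called, with log2 fold changes of 0.13 ± 0.13 (limma adjusted p = 0.492) and 0.16 ± 0.24 (limma adjusted p = 0.654). Ifi27l2a, an interferon-induced gene outside the list, was among the 15 largest increases, at 756, 827 and 495 counts in KO and 18.6, 61 and 40.2 counts in WT libraries. Members of the Ifit, Oas and Gbp families lie in clusters of similar genes, so counting can split reads between them.

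The response element, written GAAANNGAAA, was searched on both strands in the 250 bases before the start, from RefSeq promoters of GRCm38.p6. It was found in 280 of 8934 genes (3.13%), in 40 of the 540 that rose (7.41%) and in 16 of the 418 that fell (3.83%). Of the listed interferon genes with a promoter, 7 of the 11 that rose and 3 of the 11 not called held it. The list was drawn from genes known to answer interferon, so this share describes the list. A match is no measurement of binding. Promoter stretches are shown for the 4 genes that held the element and rose whichever library was left out, each 5′ to 3′ on the strand of its gene, with the matched letters in capitals. In the gene's own direction the element reads as GAAANNGAAA in Isg15 and as its reverse complement TTTCNNTTTC in the others, and Isg15, Ifit1, Ifit3 and Gbp3 hold 3, 2, 2 and 2 matches.
Isg15, chr4:156200855-156200916 (-): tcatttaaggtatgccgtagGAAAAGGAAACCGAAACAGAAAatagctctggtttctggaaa
Ifit1, chr19:34640765-34640833 (+): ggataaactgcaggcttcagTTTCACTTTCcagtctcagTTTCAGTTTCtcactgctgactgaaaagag
Ifit3, chr19:34583353-34583436 (+): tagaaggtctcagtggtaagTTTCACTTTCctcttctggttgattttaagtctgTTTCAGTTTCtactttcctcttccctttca
Gbp3, chr3:142559979-142560034 (+): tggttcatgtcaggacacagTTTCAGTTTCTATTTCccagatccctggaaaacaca

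**Figure D4:**
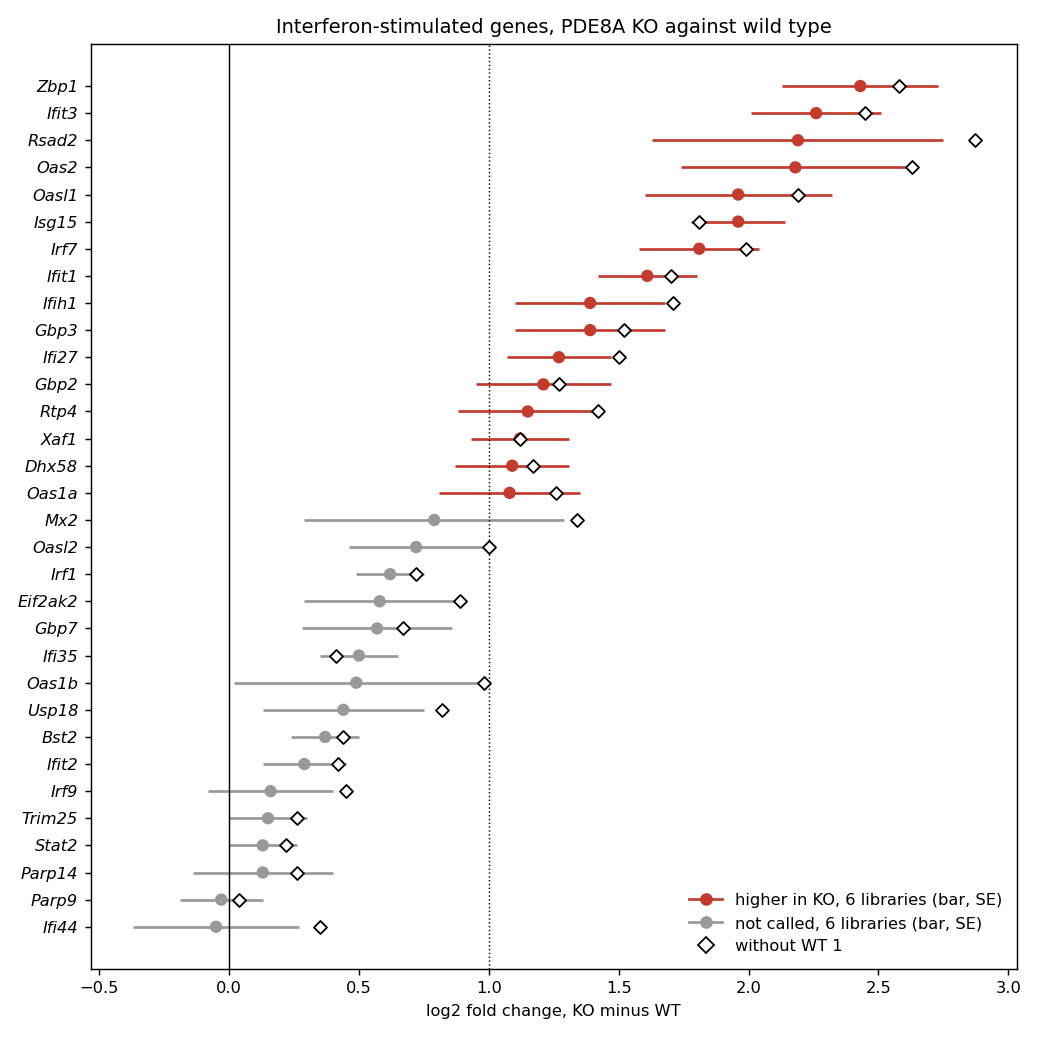
Log2 fold changes of KO over WT (x axis) for listed interferon-stimulated genes, as circles with SE for all 6 libraries and as diamonds without WT 1, with the dotted line at a log2 fold change of 1. The 16 genes called higher run from Oas1a to Zbp1, and all but 2 circles lie right of 0.

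Other immune genes moved both ways. Of 33 listed genes of NF-kB, cytokines and chemokines, 10 rose (30.3%, background 6.32%) and 5 fell (15.2%, background 5.13%), 9 and 7 without WT 1. Cxcl10, a chemokine that interferon induces, was at 423, 406 and 509 counts in the KO libraries, against 134, 76 and 93.7 counts in the WT libraries (log2 fold change 2.16 ± 0.26, limma adjusted p = 0.00147), and Tnfrsf1b, a TNF receptor, rose by 1.16 ± 0.13. Lif, a cytokine of the interleukin 6 family, fell to 72.3, 95.2 and 125 counts in KO libraries, against 1661, 519 and 416 counts in WT libraries (log2 fold change -2.89 ± 0.50, limma adjusted p = 0.00623). C3, the central complement protein, fell by 2.20 ± 0.27, and Ccl5, also an interferon-induced chemokine, by 2.16 ± 0.47. The 10 that rose were 5 without KO 2. Among 16 antigen presentation genes 2 rose (12.5%, background 6.32%) and 1 fell (6.25%, near the background of 5.13%), 1 and 1 without WT 1 and none and 1 after centring. Tapbp, which encodes tapasin, rose by 1.06 ± 0.11, and H2-T22 by 1.02 ± 0.27, a call lost without any KO library or WT 1. H2-Q4, a class I gene, fell to 368, 469 and 392 counts in KO libraries, against 7299, 5378 and 5182 counts in WT libraries (log2 fold change -3.85 ± 0.18, limma adjusted p = 5.09e-05). It lies in a family of near-identical genes, so its reads may be shared with them.

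Contractile and mechanosensitive genes were split. Acta2, the actin of smooth muscle and myofibroblasts, was at 4295, 5221 and 5065 counts in the KO libraries, against 19979, 14205 and 13179 counts in the WT libraries (log2 fold change -1.68 ± 0.18, limma adjusted p = 8.91e-04), and Tpm2, a tropomyosin, rose by 2.14 ± 0.34. Ccn2, a target of YAP and TGF-beta, was at 398, 405 and 377 counts in KO and 2756, 2090 and 2143 counts in WT libraries (log2 fold change -2.55 ± 0.15, limma adjusted p = 1.05e-04). Its relative Ccn3 had the largest increase among the genes ranked by size. Of 21 listed YAP and TAZ targets 2 rose (9.52%, background 6.32%) and 4 fell (19%, background 5.13%), 4 and 3 without WT 1, and Axl, a receptor kinase, rose by 1.22 ± 0.12 while Nt5e, an ectonucleotidase, fell by 2.03 ± 0.21 and Tead4, the DNA-binding partner of YAP, by 1.38 ± 0.16. Of 24 listed SRF and contractile genes 4 rose (16.7%, background 6.32%) and 2 fell (8.33%, near the background of 5.13%).

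Cadherin genes included 3 of 17 higher (17.6%, background 6.32%) and 6 lower (35.3%, background 5.13%). The 6 were 3 without any 1 of the KO libraries. After centring on stretches of each chromosome, 5 rose and 3 fell, which turns the balance round. Fat4, a giant protocadherin, was at 748, 1105 and 1479.9 counts in the KO libraries, against 50.2, 119 and 176 counts in the WT libraries (log2 fold change 3.38 ± 0.46, limma adjusted p = 0.00233), and Pcdh19 rose by 1.86 ± 0.21. Cdh11, the cadherin of osteoblasts, fell by 1.47 ± 0.34, a call lost without any 1 of the KO libraries. Pcdhb5 and Pcdhb20, of the beta protocadherin cluster, fell by 2.44 ± 0.46 and 1.62 ± 0.30, and reads of that cluster can be shared between its members.

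Of 34 cell cycle genes 1 rose (2.94%, background 6.32%) and none fell (background 5.13%). It was Ccnd2, which encodes cyclin D2, and 2 genes rose without KO 1, WT 2 or WT 3. Ccnd2 was at 4664, 4236 and 5578 counts in the KO libraries, against 1162, 660 and 739 counts in the WT libraries (log2 fold change 2.53 ± 0.23, limma adjusted p = 4.84e-04). In the p53 and growth arrest list 5 of 25 rose (20%, background 6.32%) and 3 fell (12%, background 5.13%). Cdkn1a, which encodes the cell cycle inhibitor p21, fell to 3788, 3773 and 2349 counts in KO libraries, against 6091, 8534 and 8933 counts in WT libraries (log2 fold change -1.26 ± 0.23, limma adjusted p = 0.00752), while Cdkn2b, which encodes p15, rose by 1.49 ± 0.30, a call lost without KO 1 or KO 2. Eda2r and Tnfrsf10b, genes of the TNF receptor family that p53 induces, rose by 1.88 ± 0.35 and 1.20 ± 0.13. Pmaip1, which encodes the p53 target NOXA, fell by 1.77 ± 0.32.

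Among metabolic lists, glutathione and xenobiotic genes rose in 8 of 21 cases (38.1%, background 6.32%) and fell in none, and 20 of 21 had a log2 fold change above 0. The glutathione transferase gene Gstm2 was at 3177, 3367 and 3149 counts in the KO libraries, against 536, 848 and 797 counts in the WT libraries (log2 fold change 2.18 ± 0.19, limma adjusted p = 4.36e-04), and Gstt1 rose by 2.51 ± 0.21. Mt2, which encodes a metallothionein, rose by 2.34 ± 0.29. Without WT 1, 5 rose and 1 fell. Of 29 glycolytic and hypoxia genes 2 were higher (6.9%, near the background of 6.32%) and none lower with 6 libraries, with a median of 0.72, against 3 higher, 3 lower and a median of 0.23 without WT 1. Without WT 2 the number higher was 5, without WT 3 it was 7, and without KO 1 or KO 2 it was 1. The glucose transporter genes Slc2a3 and Slc2a1 rose by 2.03 ± 0.28 and 1.87 ± 0.44, and Slc2a1 was not called without KO 1 or KO 2. In the cholesterol and fatty acid list 2 of 31 fell (6.45%, near the background of 5.13%) and none rose. Tm7sf2, a sterol reductase, fell by 1.03 ± 0.28, a call lost without KO 2, KO 3, WT 1 or WT 2. Without KO 2 or without KO 3 none of the list fell. Without WT 1, 4 of that list fell, and without WT 2, 1. None of 30 genes of the unfolded protein and ATF4 response was called with 6 libraries, against 11.5% of all genes. Of the 30, 2 were called higher without WT 1 and 1 without KO 2 or WT 3.

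Of 44 listed Hox genes and other genes of body position 8 rose (18.2%, background 6.32%) and 3 fell (6.82%, near the background of 5.13%), and the 8 were 5 without KO 2. Pitx1, the factor that marks the hindlimb, was at 851, 776 and 991 counts in the KO libraries, against 171, 127 and 158 counts in the WT libraries (log2 fold change 2.52 ± 0.20, limma adjusted p = 2.98e-04). Hoxb7 and Hoxb6 rose by 1.87 ± 0.29 and 1.39 ± 0.20, while Hoxb2, of the same cluster, fell by 1.33 ± 0.23. Of 9 imprinted genes 2 rose (22.2%, background 6.32%), Igf2r (above) and Grb10, and 1 fell (11.1%, background 5.13%). Grb10, an inhibitor of insulin signalling, rose by 1.81 ± 0.17, and Impact, a regulator of translation, fell to 177, 114 and 204 counts in KO libraries, against 1923, 1917 and 1789.5 counts in WT libraries (log2 fold change -3.54 ± 0.23, limma adjusted p = 1.50e-04). Of 15 listed circadian clock genes 1 rose (6.67%, near the background of 6.32%) and 2 fell (13.3%, background 5.13%), none and 1 without WT 1. Rora, a nuclear receptor of the clock, fell by 2.49 ± 0.17. Ciart fell by 1.21 ± 0.33 and Dbp rose by 1.37 ± 0.33, and neither was called without KO 1, KO 2 or WT 1. Ciart was also not called without KO 3. Of the 13 genes encoded in mitochondria mt-Nd3, a subunit of complex I, fell (7.69%, near the background of 5.13%). Together the 13 took between 3.61% and 4.31% of the counts in KO libraries, against 3.83% to 5.12% in WT libraries.

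Defining markers of other cell types were mostly missing from the table. A gene is missing if 1 library counts it below 11, so this does not show its level in either group. None of the 5 muscle markers checked was listed, 4 of 5 adipocyte markers were missing, among them Pparg and Adipoq, and so were 4 of 5 chondrocyte markers, among them Acan and Col2a1. In a wider muscle list of 4 listed genes 1 rose (25%, background 6.32%) and 1 fell (25%, background 5.13%). Des rose by 1.24 ± 0.35, a call lost without any 1 of the KO libraries or WT 3, and Acta1 (above) fell. For macrophages and osteoclasts Cd68 was the 1 marker listed of 7, summed at 292 to 665 counts in KO libraries, against 216 to 337 counts in WT libraries. In a wider list of 3 listed genes for these cells Ctsk (above) rose (33.3%, background 6.32%) and none fell (background 5.13%). Sox9, the 1 chondrocyte marker listed, was at 1053, 854 and 588 counts in KO and 218, 333 and 456 counts in WT libraries (log2 fold change 1.33 ± 0.32, limma adjusted p = 0.0193), a call lost without KO 1 or KO 2. In a wider chondrocyte list of 4 listed genes Sox9 rose (25%, background 6.32%) and Col11a2 (above) fell by 5.37 (25%, background 5.13%). The 2 called genes of a wider fibroblast list rose, namely Cd34, a surface sialomucin of fibroblast and vascular progenitors, at 623, 679 and 698 counts in KO and 22.9, 94 and 64.7 counts in WT libraries (log2 fold change 3.65 ± 0.47, limma adjusted p = 0.00187), and S100a4, a calcium-binding protein of fibroblasts, at 11685, 10731 and 9902 counts in KO and 326, 1650 and 1957 counts in WT libraries (log2 fold change 3.40 ± 0.60, limma adjusted p = 0.00658, and 2.58 without WT 1). The other 4 listed genes of that list were not called, so 33.3% of it rose, against a background of 6.32%. Of the 5 fibroblast and tendon markers checked, Scx and Pdgfra were listed and neither was called. Their summed level was 1439.7 to 2042 counts in KO libraries, within the 896 to 3012 counts of WT libraries. Of 3 listed endothelial genes Flt1 and Eng rose (66.7%, background 6.32%) and Vwf fell (33.3%, background 5.13%), the last a call lost without KO 1. The part of cell mixture in these results was not tested.

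Changes also followed position along the chromosomes. Positions were found for 11425 genes (98.6%) in the GENCODE annotation of GRCm38, with RefSeq symbols and synonyms used for those not matched there. All genes had a median of 0.00, while that of the 290 genes on chromosome 18 was -0.38 and that of the 557 genes on chromosome 6 was -0.35. On chromosome 18, 12.8% of genes fell, and on chromosome 6, 12.2%, against 5.13% of all genes. Against the mean of WT 2 and WT 3, the chromosome 18 median was -0.46, -0.34 and -0.38 in KO 1 to 3 and 0.04 in WT 1, and the chromosome 6 median was -0.33, -0.35 and -0.39 in KO 1 to 3 and -0.01 in WT 1. Chromosome 15 (0.28) and chromosome 19 (0.25) had the highest medians, and chromosome 3 the most calls, with 11% of its 563 genes higher and 11.4% lower. Under PTH no nuclear chromosome had a median below -0.04 or above 0.05.

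In stretches of 10 Mb with at least 10 genes, 20 of 251 had a median log2 fold change of at least 0.5 in size, 14 lower and 6 higher, and under PTH none did. All 15 stretches of chromosome 6 and all 9 of chromosome 18 had medians below 0, against 5 and 1 of them under PTH, and so did 17 of 18 on chromosome 1. The SD of the stretch medians against WT 2 and WT 3 was 0.3, 0.287 and 0.285 in KO 1 to 3 and 0.155 in WT 1. The sharpest steps were on chromosome 3. Between 50 and 80 Mb, 63 of 77 genes had a log2 fold change below 0, 23 fell and 1 rose, and the medians of its 3 stretches were -0.81, -0.69 and -1.01. The stretch before it, from 40 Mb to 50 Mb, had a median of 0.86 over 12 genes, all above 0, and the stretch after it, from 80 Mb to 90 Mb, a median of 0.55 over 88 genes. When each library was centred on the median of each stretch, 910 of the 1328 changed genes (68.5%) were still called in the same direction, and 1045 were called in all. After centring, the 3 bone lists held 17 lower and 3 higher, and the interferon list 16 higher and none lower. Impact, on chromosome 18, had a log2 fold change of -3.54 before and -3.08 after centring. The cause of the pattern along chromosomes was not tested.

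**Figure D5:**
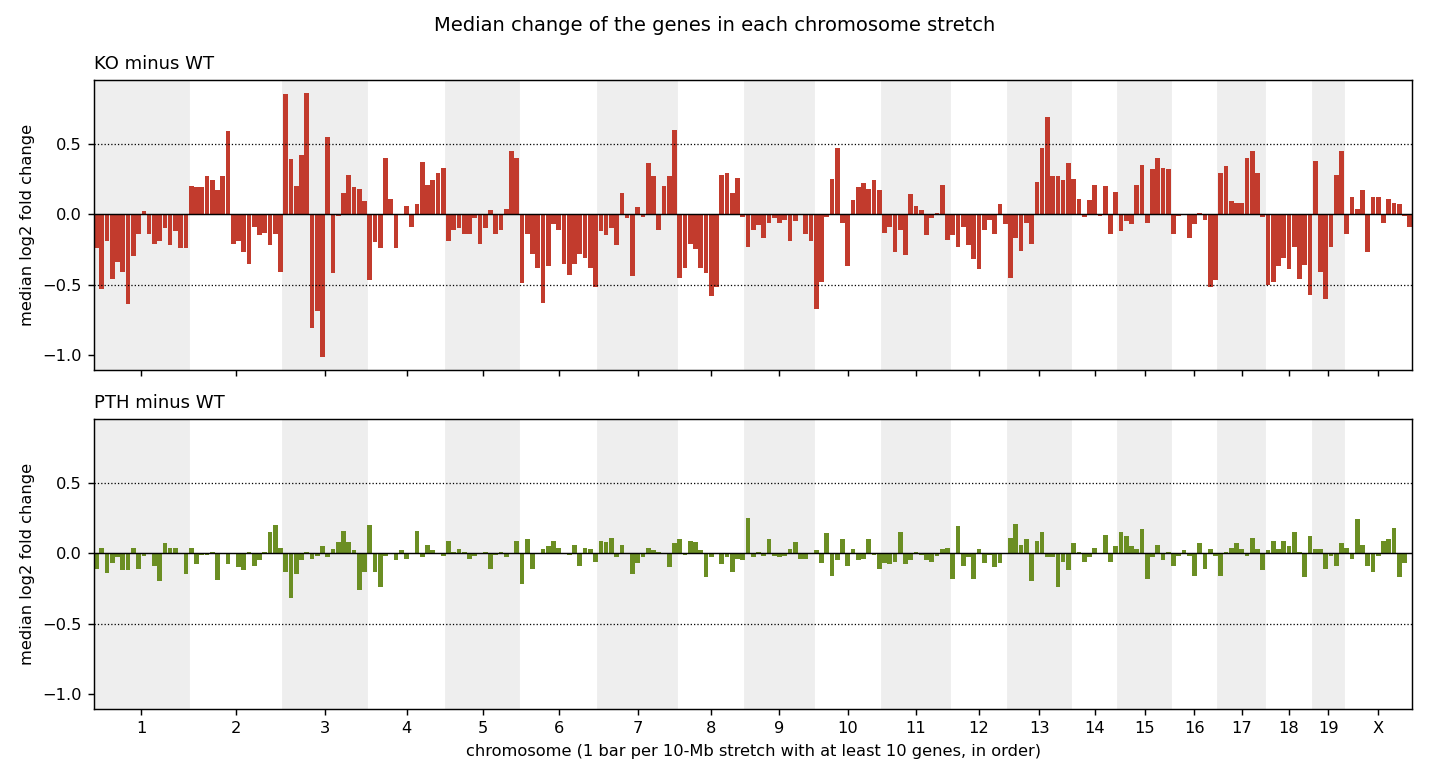
Median log2 fold change (y axis) of the genes in each of 251 stretches of 10 Mb, in order along chromosomes 1 to 19 and X, for KO against WT (upper panel) and PTH against WT (lower panel), with dotted lines at 0.5 in either direction. The upper panel shows runs of neighbouring stretches on the same side of 0, such as all of chromosomes 6 and 18 and the low block on chromosome 3, while no bar of the lower panel reaches a dotted line.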

How the data were processed

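RNA was sequenced from Ocy454 cells in 12 libraries, of which 6 are used here, 3 labelled PDE8A KO and 3 WT given vehicle. Per the labels, RNA passed a RIN above 7. Per the submitters' processing notes, the authors used FastQC 0.11.5, Salmon, DESeq2 and GRCm38. The authors gave no version for Salmon or DESeq2 there. The deposited values, a normalised signal, are estimated counts scaled by 1 factor per library (every value was a whole multiple of that factor within 0.02), and the deposited table also holds the authors' log2 fold change and adjusted p-value per gene. 8 rows without a symbol were left out.

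Differences were fitted with limma 3.58.1 (trend and robust, R 4.3.3, statmod 1.5.0) on log2(value + 1), with Benjamini-Hochberg adjustment over all 11592 genes. A fold change on this scale understates the change of low genes. The script was tested on simulated data. Summaries were made with pandas 2.3.3 and numpy 2.4.6 in Python 3.11.15, and figures with matplotlib 3.10.9. Genes counted below 11 in any library are missing from the deposited table. The same WT libraries carry other values in the PTH table, so tests stayed within a table.

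Members, gene lists and markers were chosen with earlier results of these data known. The 222 named genes include Pde8a, members of fixed lists, and up to 5 called genes per list and direction. They also include the 15 largest changes each way among genes called with and without WT 1. The last kind is the 8 genes called only without WT 1 whose log2 fold change moved most when it was left out. The 15 each way and the 8 had a mean of at least 100 over the 6 libraries. The 15 each way also had no Gm, Rik, pseudogene or similar provisional symbol. Neighbours of Pde8a, Bglap2, Pde4b, Pde4d, Stat2, Irf9, mt-Nd3 and a few called list members were named after their values were seen. Alternatives were other pseudocounts, a filter on low values, other scalings and thresholds, a replicate block and leaving out each library. Centring by 10 Mb stretch and the interferon element were added after seeing the data. Some genes are not reported here.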

Additional observations from a re-analysis of the deposited data

How the results depend on the processing

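Pseudocounts of 0.5 and 10, a minimum mean of 100, equal totals, trimmed mean scaling and limma without trend and robust gave 1331, 1285, 1177, 1329, 1330 and 1321 changed genes, against 1328. A lower fold threshold of 1.5 gave 2683 (1412 higher, 1271 lower), and no fold threshold gave 3223 (1693 higher, 1530 lower). With 1 library left out, 967 to 1405 genes changed, 514 to 814 higher and 418 to 706 lower. Pde8a ranged from -0.47 to -0.33 in those fits. Of 199 changed named genes, 154 were called in each of those fits and 169 after centring.

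KO and WT libraries share replicate numbers, but same-numbered deviations had r = 0.10, 0.06 and 0.07, so the numbers were not taken as pairs, although each KO library correlated best with its own number. The replicate block gave 1305 changed genes (711 higher, 594 lower), 1254 of them shared with the fit without it, and -0.39 for Pde8a (limma adjusted p = 0.126).

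Genes not called with 6 libraries that changed sign were Col1a1 (0.13 without WT 2, 0.26 without WT 3, range -0.78 to 0.26 with 1 library left out), Ptk2 (-0.02 centred), Ptk2b (0.07 without KO 2, 0.19 without WT 3, range -0.55 to 0.19), Crem (0.32 centred, 0.01 without WT 3, range -0.29 to 0.01), Nr4a1 (-0.22 centred, -0.03 without WT 1, range -0.03 to 0.34), Vdr (-0.32 centred, -0.09 without KO 2, -0.11 without KO 3, -0.27 without WT 1, range -0.27 to 0.24) and Ankrd37 (-0.01 without KO 1, -1.55 without WT 1, range -1.55 to 1.07). The cause was not tested. The planned count tests were not run, since the unit of the values could not be established as reads. Values near the lowest listed count carry the most counting error, and genes below it in any library were not analysed here.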

Other observations

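The interferon-inducible Ifi200 family, a cluster of DNA-sensing and growth-regulating genes on chromosome 1 that was picked out after its values were seen, was higher in KO cells for 6 of the 7 members looked at. Of all genes 6.32% rose. Because of how the family was picked, the count describes these members and is no test of the family. Mndal was at 592, 542 and 576 counts in the KO libraries, against 222, 193 and 226 counts in the WT libraries (log2 fold change 1.41 ± 0.17, limma adjusted p = 0.00137). Ifi203 and Ifi205 rose by 1.67 ± 0.22 and 1.95 ± 0.26, and these calls, like that of Mndal, were kept with any 1 library left out. Ifi207 rose by 1.84 ± 0.40 (not called without KO 1 or KO 2), Ifi204 by 1.02 ± 0.13 (not called without KO 1, KO 3 or WT 2) and Ifi211 was at 1808, 1549 and 1710 counts in KO and 1091, 733 and 742 counts in WT libraries, a rise not called without KO 1, KO 3, WT 2 or WT 3. Aim2, a sensor of cytosolic DNA in the same region, had a log2 fold change of -0.46 ± 0.19 (limma adjusted p = 0.0978) and was not called. Members of the family are similar in sequence, so counting can share reads between them. Chromosome 1 as a whole had a median log2 fold change of -0.26.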
